A study of Mus musculus with 55 samples.

Results

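The 4 adult globin genes Hba-a1, Hba-a2, Hbb-b1 and Hbb-b2, and Alas2, which encodes the heme synthesis enzyme of developing red cells, were followed across the livers of 55 male Collaborative Cross (CC) mice of 29 lines. The genes were taken by their symbols, and all 5 were found, each with 1 identifier, among 37620 genes in the files. The CC is a panel of recombinant inbred lines bred from 8 inbred founder strains. Each mouse was untreated, was fed chow, was between 8 and 11.9 weeks old and weighed between 12.8 and 38 g. A line had 1 mouse (8 lines), 2 mice (16 lines) or 3 mice (5 lines), and no line served as a control. The questions were how much of the red cell RNA in these livers was set by the line, and whether the balance within each globin pair differed among lines.

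Hemoglobin of adult mice is a tetramer of alpha chains, encoded by Hba-a1 and Hba-a2, and beta chains, encoded by the Hbb genes. Circulating red cells have no nucleus but keep globin RNA for some time, so globin RNA in a whole liver comes largely with its blood, although immature red cells would add to it. Laboratory strains carry different haplotypes at both globin loci, and the haplotypes differ in the sequence and in the output of their genes. Alas2 joins glycine and succinyl-CoA in the first step of heme synthesis in erythroid cells, and Alas1 encodes the enzyme of other tissues.

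The RNA was measured by paired-end sequencing of polyA libraries, and the estimated fragments per mouse summed to between 20542671 and 33953036. Expression is given as FPKM, fragments per kilobase of transcript and scaled to the depth of the library, as deposited. In bulk tissue, more blood in a liver and more globin RNA per red cell cannot be told apart. Mice of IL-1052 and IL-2750 went against their line labels in some of the measures below. Mouse 4302, labelled IL-1052, resembled mice 4429 and 4431 of IL-2750 in Alas2 and in the Hba-a2 share, while mouse 4430, labelled IL-2750, resembled mouse 4303 of IL-1052. Values that rest on these lines are given with and without them.

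The 2 genes of each pair are nearly the same in sequence, which bears on every comparison of one gene with its partner. On NCBI build 37, Hba-a1 (ENSMUSG00000069919) lies at chr11:32183511-32184465 and Hba-a2 (ENSMUSG00000069917) at chr11:32196489-32197301, both on the plus strand. Hbb-b1 (ENSMUSG00000052305) lies at chr7:110975048-110976610 and Hbb-b2 (ENSMUSG00000073940) at chr7:110961038-110962510, both on the minus strand. Alas2 (ENSMUSG00000025270) lies at chrX:146981918-147005181 on the plus strand, so that these male mice carry 1 copy of it. The coding sequences of Hba-a1 and Hba-a2, each of 429 bases, differ at 1 base, written C381T with the base of Hba-a1 first. Those of Hbb-b1 and Hbb-b2, each of 444 bases, differ at 1 base as well, written C417T with the base of Hbb-b1 first. Positions are counted from 1 at the A of the start codon. The coding stretch around that base is shown for each gene of the reference genome, 5′ to 3′ on the coding strand, with the differing base in capitals, because within the coding part only fragments over it tell the partners apart.
Hba-a1: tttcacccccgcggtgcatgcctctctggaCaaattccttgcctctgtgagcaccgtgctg
Hba-a2: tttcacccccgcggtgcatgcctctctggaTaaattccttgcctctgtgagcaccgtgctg
Hbb-b1: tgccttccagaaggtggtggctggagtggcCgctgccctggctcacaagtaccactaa
Hbb-b2: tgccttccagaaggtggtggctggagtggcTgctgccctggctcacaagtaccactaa
Stretches of 50 bases, the read length used, were counted in 1 transcript of each gene. For Hba-a1 this was ENSMUST00000093209, which took a median of 40.2% of the gene over mice. Those of the shorter ENSMUST00000093208, at a median of 59.8%, were not counted. Of all stretches, 32.5% of those in Hba-a1 and 13.1% of those in Hba-a2 were absent from the partner. The shares were 47.7% for Hbb-b1 and 41.7% for Hbb-b2. In Hba-a1, 161 of the 211 such stretches lay away from the differing base, in the noncoding ends of the transcript, and in Hba-a2 16 of 66 did. The remaining fragments were divided between partners by RSEM. Fragments of a founder haplotype with other bases could be assigned only to these reference sequences, and any that failed to align were not counted. The part of this in the shares and in the levels was not tested. The promoters that RefSeq gives for Hbb-bs and Hbb-bt, the names of the beta genes of the haplotype carried by C57BL/6, match the 5′ ends of Hbb-b1 and Hbb-b2 in this genome. The founder haplotypes of the lines were not analysed here.

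The globin genes were expressed in every liver and varied more than 10-fold among mice. Hba-a1 ranged from 44.4 to 1273 FPKM with a median of 257 over the 55 mice. Hba-a2 ranged from 127 to 1932 FPKM with a median of 466. Hbb-b1 was at a similar level, from 136 to 1660 FPKM with a median of 468, and Hbb-b2 was the lowest of the 4 genes, from 23.0 to 275 FPKM with a median of 78.1. The 4 genes together took between 0.0246% and 0.250% of the fragments of a mouse. The highest line mean was that of IL-1452 for Hba-a1, Hba-a2 and Hbb-b1, at 1273, 1220 and 1421 FPKM in its single mouse, whereas Hbb-b2 was highest in IL-2146, with a mean of 209 FPKM and an SD of 94.0 over 2 mice. For the sum of the 4 genes, IL-2126 and IL-4032, each with 1 mouse, were lowest at 479 and 481 FPKM, followed by IL-219 at 497 ± 56.8 FPKM (SD, n = 2 mice) and IL-1061 at 504 ± 76.2 FPKM (SD, n = 2 mice). At the other end, IL-1452 stood at 4111 FPKM, and the next lines were IL-2146, with 3329 and 1753 FPKM, and IL-72, with 2516 and 2449 FPKM.

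**Figure D1:**
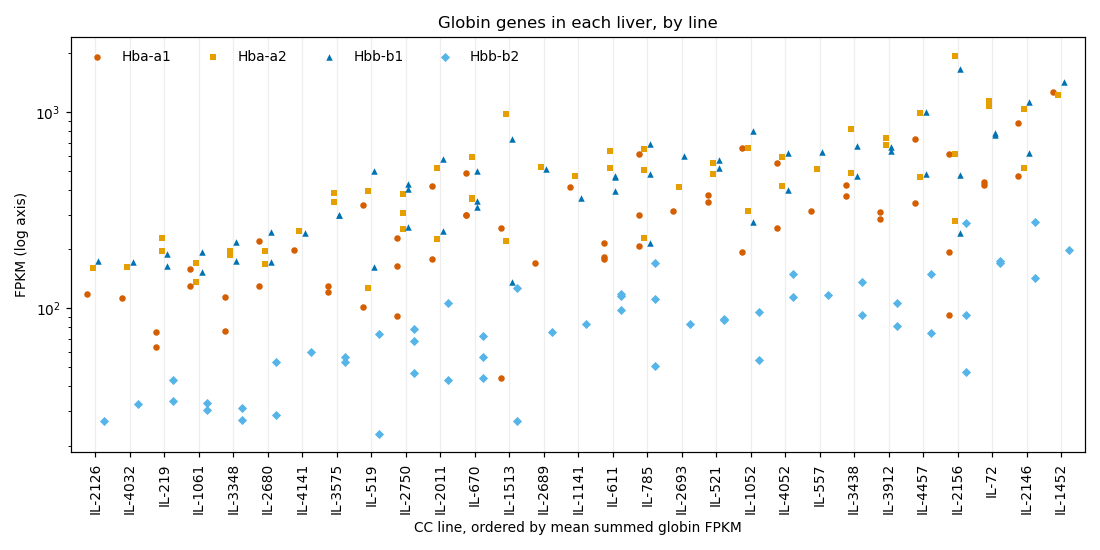
FPKM of Hba-a1, Hba-a2, Hbb-b1 and Hbb-b2 (log axis) in each of 55 livers, with 1 symbol per gene and mouse and the 29 lines ordered by their mean summed globin FPKM. The 4 genes of a mouse move up and down together, Hbb-b2 lies lowest in all 55 livers, and mates of IL-2156, IL-519 or IL-1513 lie far apart.

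Mice of the same line often differed in globin RNA. In IL-2156 the sum of the 4 genes was 662, 1373 and 4477 FPKM, which spans most of the range of all livers. In IL-1513 it was 428 and 2099 FPKM, and in IL-519 it was 413 and 1312 FPKM. In 7 of the 21 lines with mates the highest mouse was more than 2 times the lowest, whereas in IL-3575 the values were 859 and 835 FPKM and in IL-3912 they were 1701 and 1793 FPKM. Sums therefore overlapped among most lines. The SD within lines was 0.77 for Hba-a1, 0.69 for Hba-a2, 0.73 for Hbb-b1 and 0.68 for Hbb-b2 on the log2(FPKM + 1) scale. These values were higher than those of 97.7%, 97.0%, 97.4% and 96.9% of the 11690 genes with a mean FPKM of at least 0.5, whose median was 0.17. In the order of line means on that scale, 28 pairs of neighbours were compared for each gene. The gap exceeded the SD within lines for 1 pair for Hba-a1 and 1 pair for Hbb-b1, both between IL-2146 and the single mouse of IL-1452, and for 0 pairs for Hba-a2 and Hbb-b2, so that all other neighbours in the order lay within their spread.

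How far a gene kept to the line was measured by the intraclass correlation, which is 0 where line mates are no more alike than other mice and 1 where they are identical. For normal (van der Waerden) scores of FPKM it was 0.423 for Hba-a1, 0.450 for Hba-a2, 0.222 for Hbb-b1 and 0.427 for Hbb-b2, with jackknife standard errors over lines of 0.168, 0.164, 0.219 and 0.172. That of Hbb-b1 rose to 0.416, level with the others, without mouse 4547 of IL-1513. Without IL-1052 and IL-2750 it was 0.440, 0.454, 0.232 and 0.423. For log2(FPKM + 1) the values were 0.430, 0.424, 0.303 and 0.420, against a median of 0.597 over the 11690 genes. Only 7.43% of those genes had a lower value than Hbb-b1, and between 17.9% and 19.2% had a lower value than the other globin genes. In edgeR's quasi-likelihood F test over all genes, in the 47 mice of the 21 lines with mates, a difference among lines was called at an adjusted p (Benjamini-Hochberg) under 0.05 for 5 of the 5 genes. The same call was made for 88.5% of the 15285 genes tested, so the count is close to the background. The adjusted p was 0.000935 for Hba-a1, 0.00254 for Hba-a2, 0.0186 for Hbb-b1 and 0.00223 for Hbb-b2 (edgeR). That of Hbb-b1 was the weakest of the 5 and came to 0.0413 without mouse 4235 of IL-219 and to 0.0447 with limma.

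The 4 globin genes rose and fell together, both from line to line and between mates. Over the 29 line means of log2(FPKM + 1), Pearson's r was highest between Hba-a2 and Hbb-b1, at 0.948 with a Spearman rho of 0.925, and lowest between Hba-a1 and Hba-a2, at 0.770 with a rho of 0.741. All 6 pairs of globin genes passed a two-sided permutation test with 100000 pairings (adjusted p between 5e-05 and 8.33e-05 over 25 relations for r and for rho). Without the 2 lines farthest from the median, r of the 6 pairs lay between 0.713 and 0.936. For deviations of the 47 mice from the mean of their line, r of the 6 pairs lay between 0.939 and 0.986. The same mouse was highest for all 4 genes in 15 of the 21 lines with mates. The pairs share libraries, and the partners within a pair also share fragments.

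Genes whose level followed that of the globins were few. Over the 55 mice, Spearman correlation with the summed globin FPKM was computed for 11685 genes with a mean FPKM of at least 0.5, and it exceeded 0.5 for 4 of them, with a median of 0.0246. Among them were Bpgm, the red cell enzyme that makes 2,3-bisphosphoglycerate, at 0.589, Tm4sf1, which encodes a membrane protein of endothelium, at 0.541, and Kdm5b, a histone demethylase gene, at 0.510. Further genes among the 10 highest were Tspan9, Pigv, Ctu2, Cyp4f16, Nlrp6 and Fn1, at 0.491 to 0.445. Bpgm was measured on 225 to 723 fragments per mouse. In the mates of IL-2156, whose globin sums were 662, 1373 and 4477 FPKM, Bpgm was 6.41, 7.83 and 11.5 FPKM. In IL-1513, with globin sums of 428 and 2099 FPKM, it was 8.40 and 7.98 FPKM. The highest mouse for Bpgm was that with the highest globin sum in 13 of 21 lines, the same count as for Alas2. For deviations within lines, r of log2(FPKM + 1) with the globin sum was 0.649 for Bpgm and 0.226 for Alas2 (47 mice), and for line means it was 0.589 and 0.164 (29 lines).

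**Figure D2:**
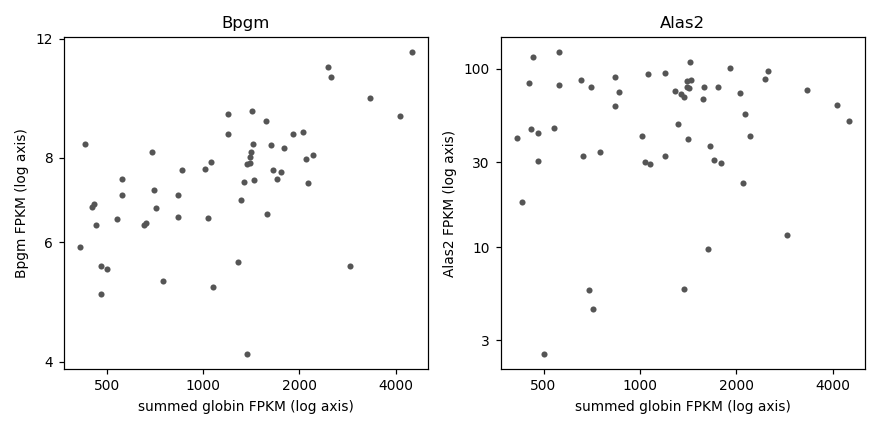
FPKM of Bpgm and Alas2 against the summed FPKM of the 4 globin genes (all axes logarithmic), with 1 point per mouse for 55 livers. Bpgm (rho 0.589) rises with the globins, whereas Alas2 spans its whole range at low and at middle globin levels (rho 0.083).

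Most other genes of red cells did not follow the globins. Of 42 genes listed for red cells and their precursors, 37 were found and 17 had a mean FPKM of at least 0.5, and the median of their correlations with the globin sum was 0.144. Those of the highest level were Acp5, Fech, Ube2l6 and Mkrn1, with means of 66.9, 45.7, 39.9 and 10.4 FPKM and correlations of 0.119, 0.186, -0.130 and 0.392, and all are expressed in other cells as well. The membrane gene Slc4a1, which encodes band 3 of red cells, was close to 0, with a mean of 0.140 FPKM. The erythroid transcription factor gene Klf1 had a mean of 1.18 FPKM and a correlation of 0.144. A difference among lines was called for 25 of the 30 genes of this list that were tested (edgeR, 88.5% over all genes). Of 9 genes listed for proliferating precursors, 8 were found, and this list does not tell red cell precursors from other dividing cells. Those of the highest level, Cdk1, Birc5, Kit and Top2a, had means between 0.392 and 0.989 FPKM. The 8 genes were called among lines by edgeR (88.5% over all genes). Of 17 further globin-family genes 12 were found, and 6 of them, the embryonic globins Hba-x, Hbb-y and Hbb-bh1 included, were listed at 0 in all 55 mice.

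Markers of other blood cells and of the liver were examined in the same way. The median correlation with the globin sum was 0.112 over the 4 neutrophil genes, 0.0318 over the 3 platelet genes, 0.0911 for the 1 lymphocyte gene, 0.0486 over the 8 Kupffer cell genes and -0.0273 over the 11 hepatocyte genes at a mean of at least 0.5 FPKM. The median was 0.0961 over 14 genes that clear hemoglobin and heme, among them Hp, which encodes haptoglobin, at 0.197, and Hpx, which encodes hemopexin, at 0.221. The summed level ranged from 2.54 to 13.4 FPKM over 10 platelet genes and from 0.62 to 20.8 FPKM over 12 lymphocyte genes, and from 1.42 to 2134 FPKM over 13 neutrophil genes, where Lcn2, which hepatocytes also express, reached 1983 FPKM. A difference among lines was called (edgeR, 88.5% over all genes) for 12 of 12 neutrophil, 5 of 6 platelet, 7 of 12 lymphocyte, 8 of 8 Kupffer cell, 11 of 11 hepatocyte and 13 of 14 clearance genes tested. The hepatocyte genes Alb, Apoa1, Serpina1a and Ttr were abundant in these livers, with means of 30752, 7429, 5347 and 4046 FPKM. The part of cell content in the globin levels was not tested beyond these values.

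The balance of the alpha globin genes kept to the line. The Hba-a2 share, its percent of the estimated fragments of Hba-a1 and Hba-a2, sets one gene against its partner in the same library. It ranged from 47.6% to 82.2% over the 55 mice with a median of 57.8%. Line mates differed by a median of 1.37 percentage points (31 pairs), against 10.4 for mice of different lines (1454 pairs). The intraclass correlation was 0.691 (SE 0.135), larger than in nearly all permutations of the line labels (one-sided permutation test, 55 mice, p = 5e-05). It was 0.760 without IL-1052 and IL-2750 and 0.797 with the labels of mice 4302 and 4430 exchanged (one-sided permutation p = 1e-05 for both, the smallest that 100000 permutations can give).

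The lines are described in a high range, a low range and a few lines between. The cuts, at 70% and 60%, were chosen after the values were seen. In 8 lines the mean Hba-a2 share was above 70%, and all 17 of their mice lay between 71.6% and 82.2%. These were IL-1513 at 82.2% and 79.9%, IL-2156 at 76.3%, 77.6% and 77.2%, IL-219 at 77.2% and 76.3%, IL-3575 at 78.5% and 74.5%, and IL-611 at 75.6%, 76.0% and 76.8%. With them were IL-2689 at 75.4% in its single mouse, IL-72 at 74.3% and 73.4%, and IL-3912 at 71.6% and 72.4%. In 18 lines the mean was 60% or below, with 31 mice between 47.6% and 63.8%. The lowest were IL-2146 at 48.7% and 47.9%, IL-1452 at 48.7%, IL-519 at 51.7% and 52.1% and IL-1061 at 52.6% and 52.2%. The mice of the high and the low lines did not overlap. Since the ranges were cut on this same share with 3 lines left between, that is no test. Mice of those 3 lines lay between 51.4% and 72.7%. The mates of IL-2156, which differed more than 6-fold in globin RNA, lay between 76.3% and 77.6% in this share.

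Some mates differed in the Hba-a2 share by more than the width of its 95% Wilson interval, which was at most 3.71 points. The interval takes each estimated fragment as surely assigned to its gene. Most stretches are shared by the partners, so it leaves out the uncertainty of RSEM's division and is too narrow even for counting error. The gap between mates was above 5 points in 7 of 21 lines and below 2 points in 12. Besides IL-1052 at 63.8% and 49.3% and IL-2750 at 65.7%, 51.4% and 68.2%, these were IL-2680 at 58.4% and 47.6%, IL-3348 at 72.7% and 64.4%, IL-3438 at 57.8% and 67%, IL-4052 at 61.9% and 53.4%, and IL-785 at 50.7%, 57.9% and 50.7%. In the order of line means 28 pairs of neighbours were compared, and 1 gap exceeded the SD within lines of 4.37 points, the 6.15 points between IL-3438 and IL-3348, each of which had mates far apart. Both of these lines lay between the high and the low range, so neither cut stood at such a gap. With the share as percent in place of scores the intraclass correlation was 0.835.

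**Figure D3:**
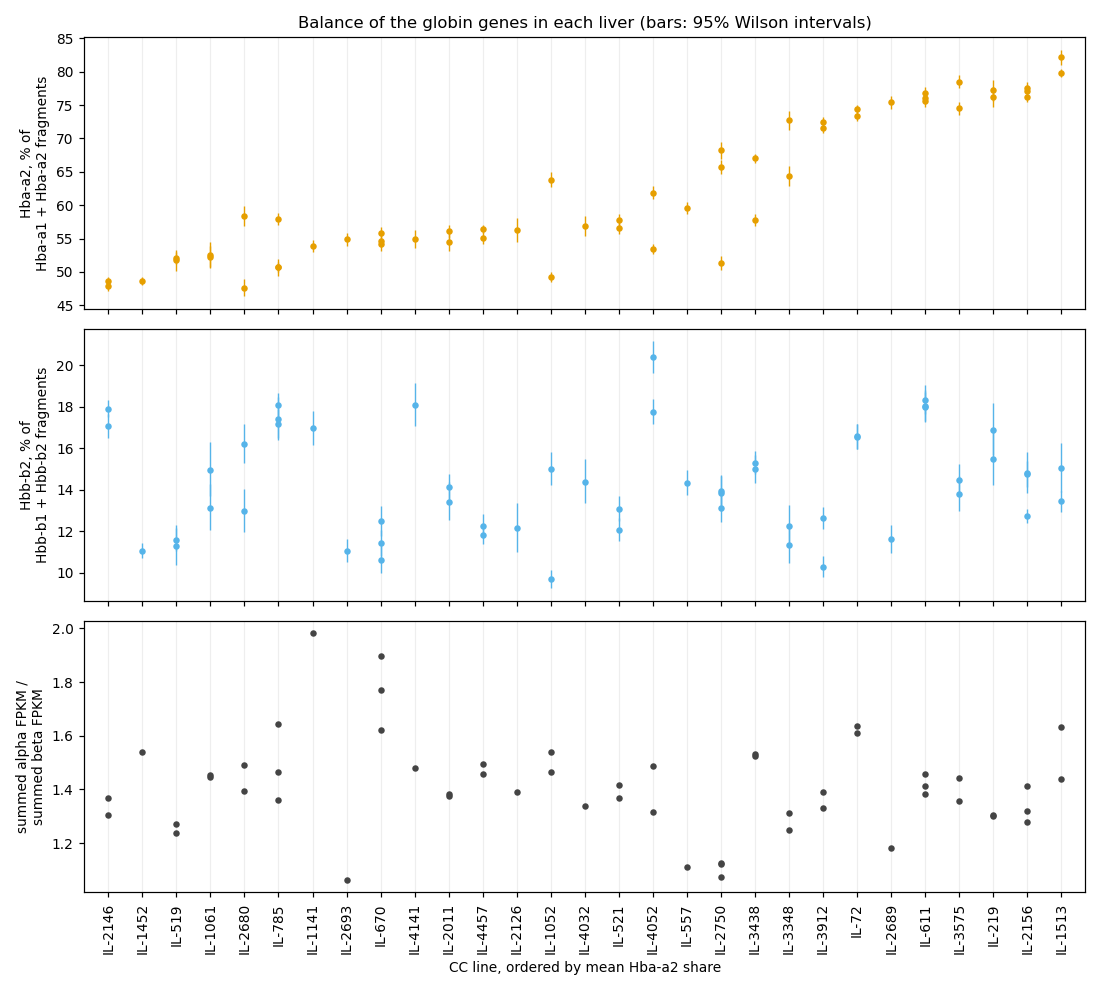
Hba-a2 as percent of Hba-a1 plus Hba-a2 fragments, Hbb-b2 as percent of Hbb-b1 plus Hbb-b2 fragments, and the ratio of summed alpha to summed beta FPKM, with 1 point per mouse, bars for the 95% Wilson interval of each share, and the 29 lines ordered by mean Hba-a2 share. The bars take each estimated fragment as surely assigned to its gene. The 8 lines on the right hold all their mice above 71.6% in the upper panel. Lines of the middle and lower panels follow another order.

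Per unit of beta globin, the lines of the high range were lower in Hba-a1 and higher in Hba-a2. The median over lines of the ratio of Hba-a1 to Hbb-b1 FPKM was 0.407 in the 8 lines above 70% (line means 0.333 to 0.559) and 0.763 in the 18 lines at or below 60% (0.5 to 1.14). For Hba-a2 to Hbb-b1 the medians were 1.22 (1.02 to 1.48) and 0.931 (0.691 to 1.29), and for both ratios the line means of the high and low ranges overlapped. The median ratio of both alpha genes to both beta genes was 1.38 and 1.42. Since the ranges were drawn on the same fragments, these values are a description without a test. RSEM also divides Hba-a1 between ENSMUST00000093209, which reaches farther at both ends, and the shorter ENSMUST00000093208. The percent given to the shorter isoform ran from 0% to 84.5% over mice with a median of 59.8%, and its intraclass correlation was 0.531. Mice with successive numbers but of different lines differed by a median of 11.4 points (30 pairs), less than line mates at 14.1 points (31 pairs). Mice 4414 and 4415 of IL-2146 were at 12.4% and 20.1%, and mouse 4434 of IL-785 was at 13.9% while its mates were at 45.1% and 55.5%. The shorter isoform took 18.3%, 1.65% and 0% in IL-2750 and 84.5% and 62.3% in IL-3912, and the Hba-a2 shares of the latter were 71.6% and 72.4%. The part of this isoform estimate in the Hba-a2 share was not tested.

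The balance of the beta globin genes differed among lines over a narrower range. The Hbb-b2 share of Hbb-b1 and Hbb-b2 fragments ranged from 9.70% to 20.4% over mice with a median of 14.1%, and its intraclass correlation was 0.719 (SE 0.125; one-sided permutation test, 55 mice, p = 1e-05, the smallest that 100000 permutations can give). It was 0.807 without IL-1052 and IL-2750 (one-sided permutation p = 2e-05). The lowest lines were IL-2693 and IL-1452, each with 1 mouse, at 11.1% and 11.1%, followed by IL-519 at 11.3% and 11.6%, IL-3912 at 10.3% and 12.6% and IL-670 at 12.5%, 10.6% and 11.4%. The highest were IL-4052 at 20.4% and 17.8%, IL-611 at 18%, 18.3% and 18%, IL-4141 at 18.1% in its single mouse, IL-785 at 17.4%, 17.2% and 18.1%, and IL-2146 at 17.9% and 17.1%. No mouse of the 5 lowest lines reached the lowest mouse of the 5 highest. Since these lines were picked on this same share, that is a description and no test. Line mates differed by a median of 0.811 points (31 pairs) and mice of different lines by 2.64 points (1454 pairs).

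Between these ends the order of lines was close. None of the 28 gaps between neighbouring line means exceeded the SD within lines of 1.19 points, and the largest was 1.05 points, between IL-3438 and IL-219. The 95% Wilson intervals were at most 2.62 points wide, on 356 to 6033 fragments of Hbb-b2. They too leave out the uncertainty of RSEM's division between partners. The 2 mice labelled IL-1052 were at 15.0% and 9.70%, the widest gap between mates, whereas those of IL-2750 were at 13.9%, 13.1% and 13.8%. The Hba-a2 and Hbb-b2 shares followed different orders of lines, with a rho of 0.133 over 29 line means, and their rho with the summed globin FPKM was -0.00148 and -0.0207. For deviations of the 47 mice from their line means, r with the globin sum on the log2(FPKM + 1) scale was -0.203 for the Hba-a2 share and -0.345 for the Hbb-b2 share. These correlations are given as a description, since the values share libraries.

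The ratio of alpha to beta globin RNA, a quantity added after the values were seen, also kept to the line. The sum of Hba-a1 and Hba-a2 FPKM was between 1.06 and 1.98 times that of Hbb-b1 and Hbb-b2, with a median of 1.39. The lowest were IL-2693 at 1.06, IL-2750 at 1.11 ± 0.0294 (SD, n = 3 mice) and IL-557 at 1.11, and the highest were IL-1141 at 1.98, IL-670 at 1.76 ± 0.137 (SD, n = 3 mice) and IL-72 at 1.62 ± 0.0177 (SD, n = 2 mice), with 1 mouse each in IL-2693, IL-557 and IL-1141. Of 28 gaps between neighbours, 5 exceeded the SD within lines of 0.07 (log2). The intraclass correlation of its scores, taken without rounding, was 0.791 (SE 0.0918; one-sided permutation test, 55 mice, p = 1e-05, the smallest that 100000 permutations can give). In IL-1052 and IL-2750 this ratio went with the labels and not against them. It was 1.54 and 1.47 in mice 4302 and 4303 of IL-1052 and 1.07, 1.13 and 1.12 in mice 4429, 4430 and 4431 of IL-2750. Exchanging the labels of mice 4302 and 4430, which raised the value for both shares and for Alas2, lowered it to 0.538 for the ratio (one-sided permutation test, p = 0.00166), and leaving out both lines gave 0.749. Mice with successive numbers but of different lines differed by a median of 0.20 (log2, 30 pairs), against 0.07 for line mates and 0.16 for all mice of different lines. The 4 lines with the lowest ratios all had mouse numbers between 4429 and 4466, a run that also held mouse 4434 of IL-785 at 1.36, below its mates at 1.64 and 1.46, and mouse 4464 of IL-4032 at 1.34. Whether mice of nearby numbers were handled together is not given in the labels, and its part in the ratio was not tested.

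Genes whose line means were most like each share were sought among 11685 genes, by absolute Spearman rho over 29 lines, as a description. For the Hbb-b2 share, 2 of the 10 highest genes lay beside the beta globin locus: Trim34b at 0.472 Mb and Trim5 at 0.460 Mb from Hbb-b1, with a rho of 0.588 and 0.570. Both belong to a cluster of antiviral TRIM genes with close paralogs, and their means were 0.578 and 1.09 FPKM. Other TRIM genes there varied: Trim12a, Trim34a, Trim30a, Trim12c and Trim6 had a rho of 0.512, 0.269, 0.0581, -0.0374 and -0.243. Genes within 2 Mb of Hbb-b1 made up 0.317% of all genes compared, 4 of the 100 highest and 2 of the 10 highest. The other 8 were Marcksl1-ps4 (rho -0.644), Setd6 (0.606), Slc23a1, Hist1h2bk, 2810474O19Rik, Dhx29, Dap and Mkks, on other chromosomes. The median absolute rho within 2 Mb was 0.127, close to 0.113 over all genes.

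For the Hba-a2 share none of the 10 highest genes lay on chromosome 11. They were Cdkl2 (rho 0.730), 6430573F11Rik (0.709), Synj2bp (0.708), Itgb1 (0.707), Ear2, Kdm2b, Clec14a, Pygb, Lrat and Ctr9, the last at 0.673. The most alike within 2 Mb of Hba-a1 was Asb3 at 0.539, and within 10 Mb it was Pnpt1, which encodes polynucleotide phosphorylase, at 0.610. None of 16 genes within 2 Mb was among the 100 highest, and 2 of 49 within 10 Mb were.

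**Figure D4:**
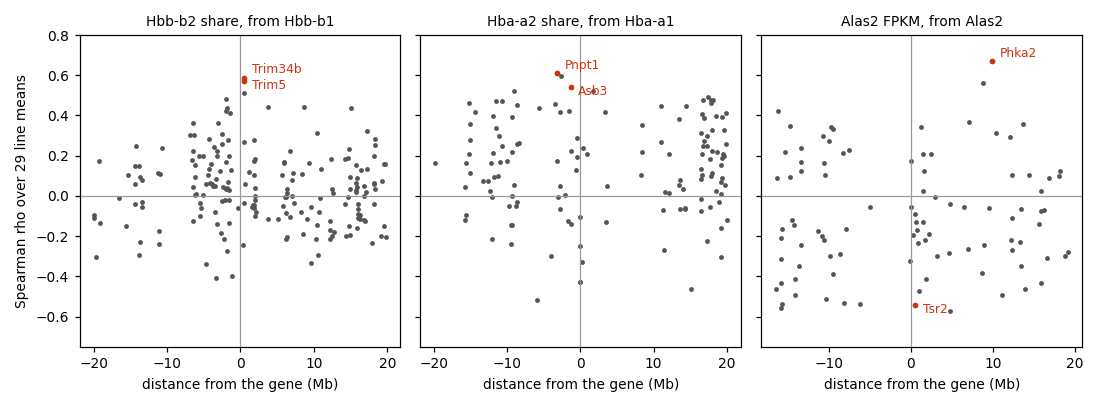
Spearman rho over 29 line means between each gene within 20 Mb and the Hbb-b2 share, the Hba-a2 share or Alas2 FPKM, against the distance of its start from Hbb-b1, Hba-a1 or Alas2, with 1 point per gene. Trim34b and Trim5 stand highest near the beta globin locus, at 0.588 and 0.570. Points near Hbb-b1, Hba-a1 and Alas2 alike lie on both sides of 0.

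Alas2 kept closer to the line than the globin genes. It ranged from 2.52 to 124 FPKM over mice with a median of 61.6, on 141 to 7117 fragments. The intraclass correlation was 0.750 (SE 0.130) for scores and 0.875 for log2(FPKM + 1), higher than for 96.5% of the 11690 genes, and 0.843 for scores without IL-1052 and IL-2750. The adjusted p for a difference among lines was 9.04e-09 (edgeR, 47 mice). The SD within lines was 0.42 on the log2(FPKM + 1) scale, lower than for each of the globin genes but higher than for 91.8% of the 11690 genes. Over line means, r between Alas2 and the globin genes lay between 0.0582 and 0.223, and none of the 4 pairs passed (two-sided permutation test, lowest adjusted p = 0.511 for r and 0.293 for rho). Within lines r was 0.188 to 0.265. The mouse with the highest globin sum was also highest in Alas2 in 13 of 21 lines.

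Low Alas2 was shared by all mice of 3 lines. In IL-2680 it was 2.52 and 4.50 FPKM, in IL-2011 it was 5.72 and 9.81 FPKM, and in IL-4457 it was 11.8 and 5.80 FPKM. IL-1513 followed at 18 and 22.9 FPKM. These 8 mice lay below every other liver. The gap of 1.19 (log2) between IL-4457 and IL-1513 was the largest in the order of lines and one of 3 gaps, of 28, above the SD within lines. IL-4457 was at the same time high in globins, with sums of 2882 and 1369 FPKM, and IL-2680 low, at 500 and 715 FPKM. From IL-3912 at 30.2 ± 0.969 FPKM (SD, n = 2 mice) upward the line means rose without a break as wide. They passed IL-670 at 32.2 ± 4.24 (SD, n = 3), IL-519 at 45.1 ± 5.75 (SD, n = 2), IL-219 at 46.3 ± 0.764 (SD, n = 2), IL-3575 at 67.7 ± 8.61 (SD, n = 2), IL-785 at 71.6 ± 13.4 (SD, n = 3), IL-2146 at 77.6 ± 1.83 (SD, n = 2), IL-1061 at 82.4 ± 1.10 (SD, n = 2), IL-72 at 92.5 ± 6.58 (SD, n = 2) and IL-611 at 96.4 ± 11.7 (SD, n = 3). The highest was IL-3348 at 117 and 124 FPKM, whose globin sums of 465 and 559 FPKM were among the lowest. Mates were farthest apart in IL-4052, at 32.5 and 101 FPKM, and those of IL-2156 were at 69.6, 51.1 and 32.6 FPKM. In IL-1052 they were at 90.6 and 42.1 FPKM and in IL-2750 at 93.4, 41.9 and 86.5 FPKM.

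**Figure D5:**
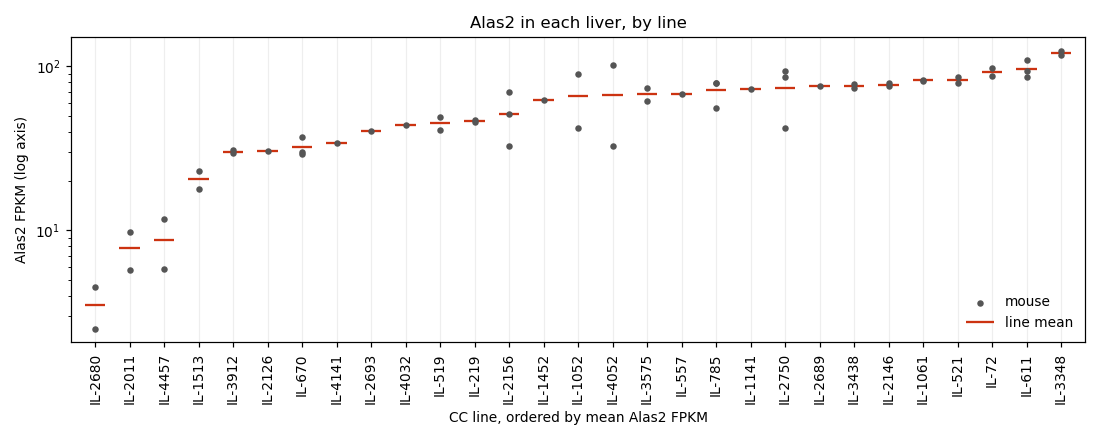
Alas2 FPKM (log axis) in each of 55 livers, with points for mice and bars for line means, and with the 29 lines in order of the mean. IL-2680, IL-2011 and IL-4457 stand apart below 12 FPKM. The highest mouse of a line was a median of 1.27 times the lowest, and more than 2 times in 5 of the 21 lines with mates.

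Of the 4 annotated isoforms, 2 carried nearly all Alas2 RNA. ENSMUST00000066337 took between 52.3% and 100% of it, with a median of 70.6%, and ENSMUST00000112715, in which the third exon is shorter, took between 0% and 47.7%, with a median of 28.8%. The extremes of the latter came from lines with little Alas2, with 39.3% and 47.7% in IL-4457 and 0% and 21.8% in IL-2680, where few fragments were counted. Over line means, the genes most like Alas2 by the rule used for the shares, applied after the values were seen, were Fam122a (rho 0.724), Gse1 (0.712), Ido2 (0.680), Phka2 (0.670) and Rnf26 (0.669). Phka2, which encodes a regulatory subunit of phosphorylase kinase, lies on the X chromosome at 9.96 Mb from Alas2, and Tsr2 at 0.549 Mb had a rho of -0.544.

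The other genes of heme synthesis were expressed at liver levels. Of 8 genes in the list, 8 were tested and 7 were called among lines by edgeR (88.5% over all genes). Alas1, the enzyme gene of the same step outside erythroid cells, had a mean of 156 FPKM, from 8.91 to 593, and an intraclass correlation of 0.649 on the log2(FPKM + 1) scale. Alad, Fech and Cpox had means of 101, 45.7 and 41.4 FPKM and intraclass correlations of 0.626, 0.569 and 0.791, all below the 0.875 of Alas2. The gene not called was Uros (adjusted p = 0.596, edgeR).

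Globin and Alas2 levels were compared with age, body weight and depth over the 29 line means. None of the 15 relations passed (two-sided permutation tests, Benjamini-Hochberg over 25 relations). The largest r was that of Hba-a2 with body weight, at 0.365 (Spearman rho 0.392, permutation p = 0.0512 for r and 0.0362 for rho, adjusted p = 0.183 and 0.129), and it was 0.280 without the 2 lines farthest from the median. The r of the 4 globin genes with total fragments lay between 0.142 and 0.181.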

How the data were processed

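Polyadenylated RNA of 55 livers was sequenced in pairs of 50-base reads. Per the study's methods, the authors used RSEM 1.2.18, which ran Bowtie 2, on transcripts of Ensembl release 67 (NCBI build 37, mm9). The deposited expected counts are fragments estimated per gene, with ambiguous fragments shared out. The deposited FPKM and TPM values are RSEM's, per effective transcript length and per depth. The deposited isoform percent is the share of a gene's expression.

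The members and gene lists were chosen with earlier results of these data known. Line mates served as replicates, and replicate numbers only name mice. Expected counts were rounded and tested among lines with edgeR 4.0.16 (TMM, filterByExpr, quasi-likelihood F test). DESeq2 1.42.0 and limma 3.58.1 were alternatives. Intraclass correlations used the one-way estimator on van der Waerden scores, after rounding to bins of 0.5 or the maximum divided by 200, with 100000 permutations for the shares. The alpha to beta ratio was scored without rounding, since it would leave 3 levels. By the study's rule, a maximum FPKM of at least 2 and at least 12 levels were required, and all 5 genes passed. Named genes were the members, the up to 4 highest genes of each list, and the 10 genes most like the globin sum or a share. Alas2 likeness, the alpha to beta ratio and the exceptions named in the text were added later.

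In simulated counts with 200 genes changed 3-fold among 14418, edgeR recovered 198 with 12 false calls. The simulation gave all genes the same low dispersion and the other genes no difference among lines. Its recovery therefore does not carry over to genes as variable within lines as the globins. Simulated traits (100 at each setting) made with an intraclass correlation of 0, 0.3, 0.6 or 0.9 had a median estimate of 0.00174, 0.327, 0.597 or 0.884, with 1, 50, 93 or 100 passing. Python 3.11.15 and R 4.3.3 were used. No label names a batch, and genotypes were not analysed here. Some genes that the rules would name are not reported here. Gene positions came from the Ensembl release 65 annotation of the same build.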

Additional observations from a re-analysis of the deposited data

How the results depend on the processing

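The intraclass correlations of both shares and of the alpha to beta ratio kept their direction and their side of the threshold in every alternative. So did the 10 correlations among the 5 genes and the edgeR call of each of the 5 genes. The intraclass correlations of the 5 genes had no test, and each stayed positive and within a jackknife standard error of its main value. The number of genes called, also without a test, was 13523 of 15285 in the main fit. The Hba-a2 share gave 0.706 to 0.856 and the Hbb-b2 share 0.720 to 0.807 with FPKM, TPM, percent, logit, other lines or exchanged labels. Leaving out 1 mouse gave 0.665 to 0.790 and 0.702 to 0.838, and 0.767 to 0.839 for the ratio. Alas2 lay between 0.714 and 0.837 and Hbb-b1, the least certain, between 0.180 (without mouse 4414 of IL-2146) and 0.416 (without mouse 4547 of IL-1513). The number of genes called was 10070 with at least 10 counts in every mouse, 13551 with DESeq2, 10659 of 11690 with limma and 13322 of 24300 without a filter. It was 13129 to 13599 without each of 47 mice, with the trend of the dispersion held. The relations with covariates that failed the test changed sign in places. With deviations from line means, r with total counts was -0.173 for Hba-a1, -0.145 for Hba-a2, -0.182 for Hbb-b1, -0.123 for Hbb-b2 and 0.0181 for Alas2, and r of Alas2 with body weight was 0.361. Without the 2 farthest lines, r with total counts was -0.101 for Hba-a2 and -0.0863 for Hbb-b2, and r of Hbb-b1 with age was -0.0844. The cause was not tested. Alas2 rested on only 141 to 660 fragments per mouse in IL-2680, IL-2011 and IL-4457, which limits its isoform percents there. The 8 lines with 1 mouse have no spread of their own.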

Other observations

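Myoglobin, the oxygen carrier of muscle and a relative of the globins, was listed at 0 in 48 of 55 livers. It was 218 FPKM in mouse 4243 of IL-3912 and 31.4 and 20.3 FPKM in mice 4272 and 4434 of IL-785, with 1.98 FPKM in mouse 4238 of IL-2680. Skeletal muscle genes looked up after this was seen were highest in the same mice. In mouse 4243, Ckm, which encodes muscle creatine kinase, was 292 FPKM, Acta1, which encodes skeletal actin, was 639 FPKM and Tnnt3, a troponin gene, was 288 FPKM. The fifth highest mouse had 0.41 FPKM of Acta1 and 0.10 FPKM each of Ckm and Tnnt3. The Hba-a2 share of mouse 4243 was 71.6%, against 72.4% in its mate, and their globin sums were 1701 and 1793 FPKM.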
